A study of Mus musculus with 9 samples.

Results

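Camk2a, Camk2b, Camk2d and Camk2g encode the 4 subunits of calcium/calmodulin-dependent protein kinase II (CaMKII), and their RNA levels are given here for single mice of 3 behavioural groups. The 4 genes were chosen by symbol, with the changes of Camk2a in these mice already known, so their own values are a description without a test. Of the 4 genes, 3 were listed in each of the 2 deposited tables, among 9872 genes in the BA vs AV table and 11820 in the BA vs AP table, or 12275 genes in either. Camk2b was listed in neither. All mice were Thy1-YFP transgenics, labelled B6.Cg-Tg(Thy1-YFP)HJrs/J, untreated otherwise as far as the labels say, and were labelled balancing (BA), avoiding (AV) or approaching (AP) by their behaviour in a task that sets a reward against an aversive stimulus. YFP is under the Thy1 promoter in this line, which is active mainly in projection neurons of the forebrain, the amygdala among them, but also marks some cells elsewhere. YFP-positive cells were sorted from the amygdala about a month after the task, and each replicate was 1 mouse. Age and sex of the mice were not given. The BA vs AV table held 3 BA and 2 AV mice (AV replicate 2, which the authors removed as an outlier, was not used), and the BA vs AP table held the same 3 BA mice and 3 AP mice. Both comparisons share the BA mice, and the tables were normalized separately, so levels are compared only within a table.

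CaMKII is a large holoenzyme of related subunits that is switched on by calcium-bound calmodulin. Once active, a subunit can phosphorylate its neighbour on a regulatory threonine, which leaves the kinase partly active after calcium has fallen again. The alpha subunit, encoded by Camk2a, is abundant in excitatory neurons of the forebrain, where the kinase sits at the postsynaptic density and is required for long-term potentiation and for several forms of learning, and its mRNA is carried into dendrites. The beta subunit, encoded by Camk2b, is likewise neuronal and binds actin, whereas Camk2d and Camk2g are expressed in many tissues.

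The identity of the sorted cells was checked against marker genes. None of the 12 markers of forebrain excitatory neurons, among them Slc17a7, Neurod6 and Thy1 itself, was listed in either table, and 3 of 10 general neuronal markers were (Tubb3, Eno2 and Elavl4). All 10 markers of the oligodendrocyte lineage were listed in both tables, and astrocyte markers were listed for 9 of 10 genes in the BA vs AV table and 10 of 10 in the BA vs AP table. The listed markers thus do not bear out the label of pyramidal neurons, but a gene can be missing through the low-count filter or because it is not among the rows analysed here, and genes of neuronal synapses such as Dlg4 and Grin2b were listed. In the BA vs AP table the values lie on steps of 1 read above a lowest value of 2. Over the listed genes these steps gave 3817160 to 6720919 reads per mouse, which is not the sequencing depth of the library. The level of 3 reads was between 4.13 and 5.68. Reads were not recovered from the BA vs AV table, so those of the AV mice are not known. In RNA from sorted cells in bulk, fewer cells of a type and less RNA per cell cannot be told apart.

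Reads of the subunit genes can be told apart by sequence. Of the windows of 75 bases, the read length, in the annotated transcripts (7566 in Camk2a, 9790 in Camk2b, 23354 in Camk2d and 7181 in Camk2g), 0 occurred in the transcripts of any other gene. The longest identical run between any pair of subunits was 34 bases, between Camk2a and Camk2b and between Camk2a and Camk2d. The stretch around the codon of the regulatory threonine is shown for 3 subunits, because it is a segment of common function where the genes can be compared directly. Each run is 63 bases of coding sequence in exon 11 of the transcript used (GENCODE M21, GRCm38), and capitals mark the threonine codon.
Camk2b, chr11:5988967-5989029, minus strand, codon 287: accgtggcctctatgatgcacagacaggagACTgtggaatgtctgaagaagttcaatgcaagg
Camk2d, chr3:126797711-126797773, plus strand, codon 287: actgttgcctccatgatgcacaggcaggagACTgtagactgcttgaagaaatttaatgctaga
Camk2g, chr14:20760409-20760471, minus strand, codon 285 in this transcript: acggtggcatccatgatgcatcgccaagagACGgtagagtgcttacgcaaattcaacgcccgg
The runs of Camk2b and Camk2d differed at 12 of 63 bases, those of Camk2b and Camk2g at 20, and those of Camk2d and Camk2g at 18. The same stretch of Camk2a, around codon 286, differed from Camk2b at 8 bases, from Camk2d at 13 and from Camk2g at 20.

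Camk2a (ENSMUSG00000024617.16, chr18:60925618-60988152, plus strand) was far higher in both AV mice than in any BA mouse. Its normalized signal was 55.3, 77.3 and 68.4 in BA replicates 1, 2 and 3, and 1656 and 2965 in AV replicates 1 and 3. The groups did not overlap, and the lower AV mouse stood 21.4-fold above the highest BA mouse. The means were 67.0 ± 11.0 (SD, n = 3) in BA and 2311 ± 926 (SD, n = 2) in AV, a ratio of 34.5, with a difference of 5.04 on the log2(value + 1) scale (SE 0.31). By log2 fold change Camk2a stood at rank 2 of 9872 genes. Relative to the BA mean of log2(value + 1), AV replicate 1 was 24.6-fold higher and AV replicate 3 was 44.0-fold higher, so the 2 AV mice differed from each other as well.

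Camk2a split the AP mice. Its normalized signal in the BA vs AP table was 64.9, 98.3 and 69.4 in BA replicates 1, 2 and 3, and 77.0, 843 and 1401 in AP replicates 1, 2 and 3. AP replicate 1 lay inside the BA range, whereas the other two AP mice lay well above it, so the groups overlapped. The values correspond to 59, 94 and 55 reads in the BA mice and to 66, 1187 and 1294 reads in the AP mice. Exact Poisson 95% intervals, which cover counting error only, were 51.0 to 84.0 reads for AP replicate 1 and 1120 to 1257 for AP replicate 2. They did not overlap. They take each recovered read as an independent count and were not scaled to the total reads of each mouse. The cause of the gap between these mice was not tested. The AP mean was 774 ± 665 (SD, n = 3) against 77.5 ± 18.2 (SD, n = 3) in BA, a difference of 2.55 on the log2(value + 1) scale (SE 0.92), and on that scale AP replicates 1, 2 and 3 stood at 1.01, 10.9 and 18.2 times the BA mean. With 1 mouse left out, the difference ranged from 1.73 to 3.82, the highest without AP replicate 1.

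Camk2d (ENSMUSG00000053819.16, chr3:126596302-126846326, plus strand), the subunit gene best known from the heart, varied within BA about as much as between groups. Its normalized signal was 254, 153 and 401 in BA replicates 1, 2 and 3, and 341 and 486 in AV replicates 1 and 3. The groups overlapped, since BA replicate 3 lay above AV replicate 1, and the difference was 0.70 on the log2(value + 1) scale (SE 0.42). It was, in the BA vs AP table, 292, 192 and 457 in the BA mice and 367, 346 and 588 in the AP mice, again with overlap and with a difference of 0.51 (SE 0.36). BA replicate 2 was the lowest mouse and BA replicate 3 the highest BA mouse in both tables, which hold the same BA libraries.

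Camk2g (ENSMUSG00000021820.18, chr14:20734875-20794088, minus strand), a subunit gene expressed in many tissues, differed little between the groups. Its normalized signal in the BA vs AV table was 433, 249 and 427 in the BA mice and 392 and 566 in the AV mice, with a difference of 0.39 on the log2(value + 1) scale (SE 0.33). AV replicate 1 lay inside the BA range. The BA vs AP table gave 496, 301 and 489 in the BA mice and 368, 394 and 343 in the AP mice, and all 3 AP mice lay inside the BA range, the difference being -0.18 (SE 0.26). As background for the 3 listed subunits, 29.7% of all genes were called in BA vs AV at an adjusted p under 0.05 and 58.9% had groups without overlap (27.7% with both AV mice higher), and in BA vs AP 0.00846% were called and 12.1% had no overlap. Camk2a alone of the 3 was called in BA vs AV and alone had groups without overlap there, and in BA vs AP no subunit gene met either condition. Nothing is read from these counts, because the genes were chosen on this contrast.

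**Figure D1:**
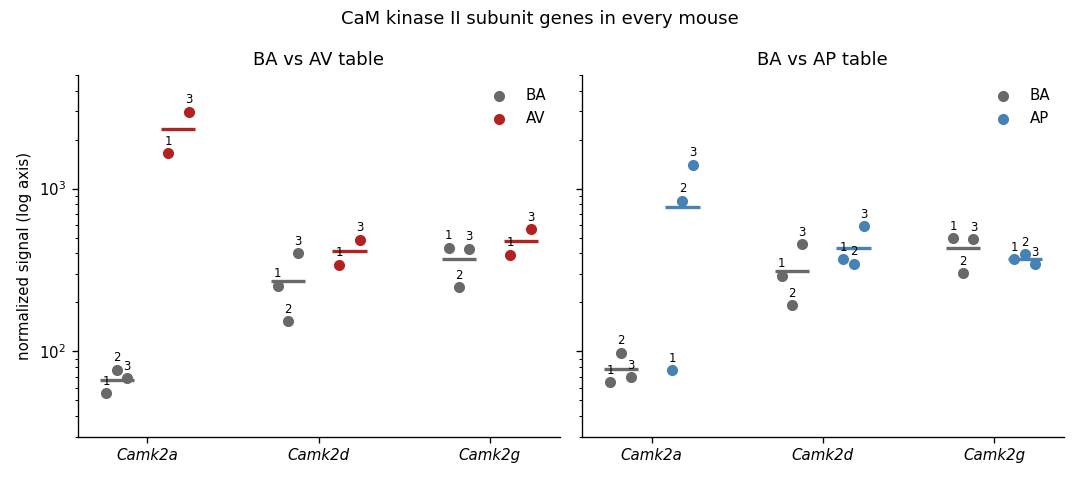
Normalized signal (log axis) of Camk2a, Camk2d and Camk2g in every mouse of the BA vs AV table and the BA vs AP table, with replicate numbers beside the points and bars at the group means. Camk2a was between 55.3 and 77.3 in the BA mice and at 1656 and 2965 in the AV mice, whereas AP replicate 1 stayed at 77.0 and the other two AP mice reached 843 and 1401.

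Ratios between subunit genes of the same mouse, taken on value + 1, are nearly free of a scaling factor of the library. They are not free of differences between the tables that vary by gene. In BA replicate 3 the log2 ratio of Camk2a to Camk2d was -2.53 in the BA vs AV table and -2.70 in the BA vs AP table. In the BA mice of the BA vs AV table the log2 ratio of Camk2a to Camk2d was -2.18, -0.98 and -2.53, and in the AV mice it was 2.28 and 2.61. The log2 ratio of Camk2a to Camk2g was -2.95, -1.68 and -2.62 in the BA mice and 2.08 and 2.39 in the AV mice. Both ratios thus differed in sign between the groups without overlap, with mean differences of 4.34 and 4.65. For Camk2a to Camk2d the sign depends on the length used. Per kb of exon this ratio was 0.657, 1.52 and 0.515 in the BA mice and 14.6 and 18.4 in the AV mice. Per kb of the longest transcript it was 0.243, 0.561 and 0.190 in the BA mice and 5.40 and 6.78 in the AV mice. The ratio of Camk2a to Camk2g per kb of exon was 0.110, 0.266 and 0.137 in the BA mice and 3.62 and 4.49 in the AV mice. The ratio of Camk2d to Camk2g overlapped between the groups, with a difference of 0.31.

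AP replicate 1 again lay among the BA mice. The log2 ratio of Camk2a to Camk2g was -2.92, -1.61 and -2.80 in the BA mice and -2.24, 1.09 and 2.03 in the AP mice. That of Camk2a to Camk2d was -2.15, -0.96 and -2.70 in the BA mice and -2.24, 1.28 and 1.25 in the AP mice. Without correction for length, the sign was positive in AP replicates 2 and 3 only, for both ratios. For Camk2d to Camk2g the ratio was highest in AP replicate 3, at 0.78, and the groups overlapped.

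**Figure D2:**
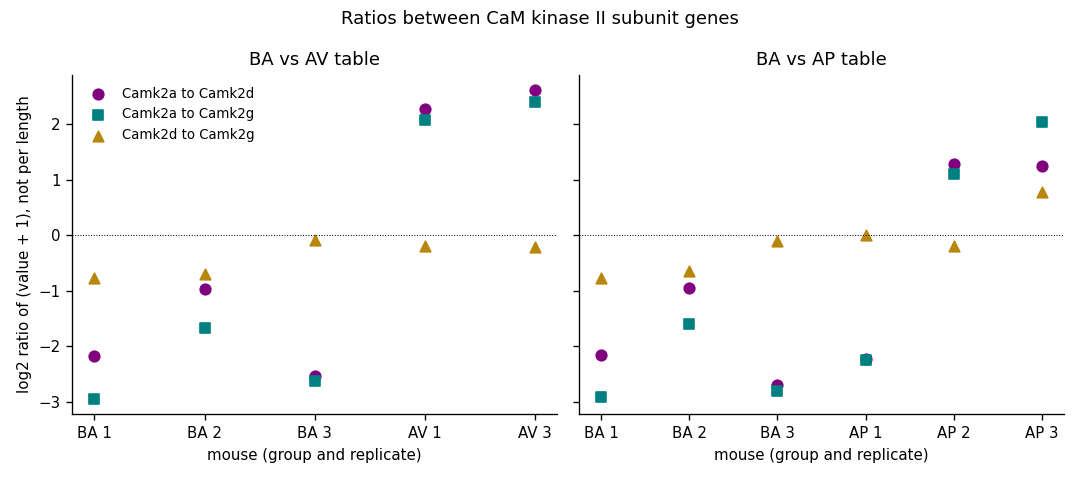
Log2 ratio of value + 1 between each pair of listed subunit genes in every mouse, not corrected for length, with the BA vs AV table on the left and the BA vs AP table on the right. The ratios of Camk2a to Camk2d and to Camk2g are above 0 in both AV mice and in AP replicates 2 and 3, and below 0 in all BA mice and in AP replicate 1.

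Levels were compared between the genes per kb of annotated exon. In the BA mice of the BA vs AV table Camk2g had the highest level per kb, 57.8 ± 16.3 (SD, n = 3), followed by Camk2d, between 6.81 and 17.8, and Camk2a at 8.98 ± 1.48. On this length Camk2g lay above the other two in every BA mouse, and the ranges of Camk2d and Camk2a overlapped. Per kb of the longest transcript the BA ranges were 67.3 to 117 for Camk2g, 27.7 to 72.5 for Camk2d and 11.1 to 15.5 for Camk2a, so that Camk2d then overlapped Camk2g and not Camk2a. In the AV mice the order was Camk2a at 309.5 ± 124 (SD, n = 2), Camk2g at 74.8 ± 19.2 and Camk2d at 18.4 ± 4.55. Among all genes of the table, the level of Camk2a per kb stood between percentiles 12.7 and 19.8 in the BA mice and at percentiles 95.8 and 98.2 in the AV mice. In the BA vs AP table it stood between percentiles 15.8 and 25.1 in the BA mice and at 18.3, 85.9 and 93.3 in AP replicates 1, 2 and 3.

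As a share of the summed level of the 3 listed genes per kb, Camk2a took 8.58%, 18.5% and 9.79% in the BA mice and 74.4% and 78.3% in the AV mice. Camk2g took 73.0% ± 4.74 (SD, n = 3) in BA, and 20.5% and 17.4% in the AV mice. In the AP mice Camk2a took 12.3%, 59.5% and 70.2%, against 8.76%, 19.2% and 8.78% in the BA mice of that table. The leading listed subunit gene was Camk2g in all BA mice and in AP replicate 1, and Camk2a in the AV mice and in AP replicates 2 and 3. The summed level itself was between 56.1 and 93.7 per kb in the BA mice against 298 and 507 in the AV mice, so the lower share of Camk2g in AV went with a level that was not lower. These shares leave out Camk2b, and with the longest transcript as the length Camk2d took 29.1% in BA and Camk2a 68.9% in AV.

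**Figure D3:**
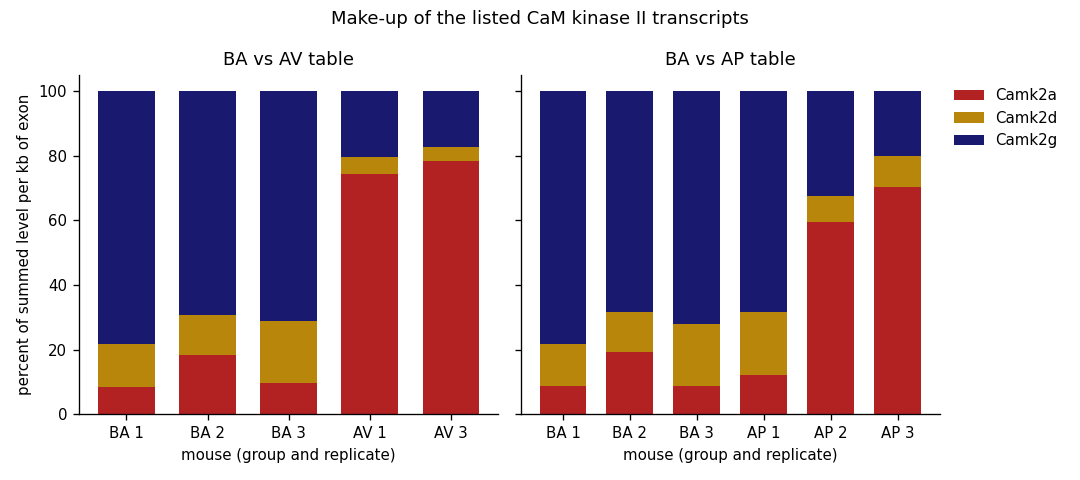
Percent of the summed level per kb of exon taken by Camk2a, Camk2d and Camk2g in every mouse, as stacked bars from 0 to 100. Camk2a takes at most 19.2% in a BA mouse, 74.4% and 78.3% in the AV mice and 12.3%, 59.5% and 70.2% in AP replicates 1, 2 and 3.

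Marker sums of several cell types differed between BA and AV, and among the AP mice only the astrocyte sum followed the split of Camk2a. In the BA vs AV table the summed signal of the listed oligodendrocyte markers was 195290 to 241913 in the BA mice and 56144 and 87046 in the AV mice, that of the astrocyte markers 13351 to 19720 against 37149 and 72332, and that of the 3 neuronal markers 124 to 230 against 378 and 460. The oligodendrocyte sum in the BA vs AP table was 229565 to 294082 in the BA mice and 232737, 285785 and 252737 in AP replicates 1, 2 and 3, which overlap. The astrocyte sum there was 16858 to 22362 in the BA mice and 13590, 63216 and 35515 in the AP mice, with AP replicates 2 and 3 above the BA range and AP replicate 1 under it. The microglial sum was 1451 to 2917 in the BA mice and 5132, 3912 and 6839 in the AP mice, and thus also high in AP replicate 1, and the neuronal sum was 135 to 288 against 154, 160.4 and 352. For the remaining lists, the sums in the BA vs AV table were 6.42 to 11.9 in BA against 17.8 and 18.1 in AV for the 1 listed GABA neuron marker. They were 335 to 553 against 256 and 278 for the 4 listed of 10 endothelial and mural markers. For the 3 listed of 10 microglial markers they were 237 to 354 against 722 and 939. The 3 listed of 16 immediate early genes (Arc, Egr3 and Fosl2) summed to 557 to 1208 against 1345 and 1566. Arc had the highest level of these, and its values overlapped between the groups. The BA and AP ranges overlapped in the BA vs AP table for the GABA neuron, endothelial and immediate early lists. The part of these cell types in the values of the subunit genes was not tested.

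The genes with the profile most like that of Camk2a were ranked by the root mean square difference of log2(value + 1), each gene centred on its BA mean. Over the 5 mice of the BA vs AV table and 8279 genes with a sufficient mean, the nearest included Ddn (0.37), Fam81a (0.46), Dok6 (0.54) and Bsn (0.71). Over the 6 mice of the BA vs AP table and 9468 genes they were Ddn (0.39), Rims1 (0.56), Ctxn1 (0.61), Rapgef4 (0.69) and Kcnt2 (0.70). Ddn, which encodes the dendritic protein dendrin, was the nearest gene in both tables. Bsn and Rims1 encode proteins of the presynaptic active zone. Dendrin had a normalized signal of 16.8, 384.5 and 562 in AP replicates 1, 2 and 3, the same order of mice as Camk2a. The nearest genes to Camk2d were Yap1 (0.12) and Ghr (0.15) in the BA vs AV table and Apobec3 (0.14) and Gm47933 (0.15) in the BA vs AP table. Those nearest to Camk2g were Slc25a37 (0.067) and Lamb2 (0.079), and Zfp758 (0.069) and 4930503L19Rik (0.077), in the same order of tables. The tables share the BA mice, and a small difference is easier to reach for a gene that varies little.

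**Figure D4:**
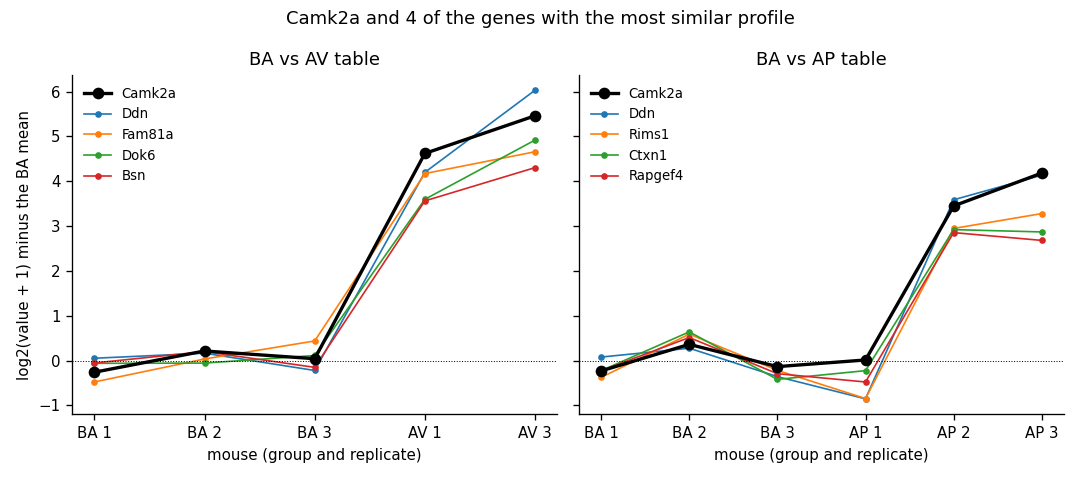
Log2(value + 1) minus the BA mean in every mouse for Camk2a (black) and 4 genes of small root mean square difference from it in each table, where lines only link the points of a gene. All genes drawn lie above the BA mice in AV replicates 1 and 3 and in AP replicates 2 and 3, and in AP replicate 1 none is above the highest BA mouse.

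The genes that act with the kinase were taken from 9 lists holding 95 genes, some of them in more than 1 list. The lists were chosen with earlier results of these data known, so the shares called in them are a description and no test of enrichment. In BA vs AV, 68 were listed, of which 33 were higher and 3 lower in AV at an adjusted p under 0.05 (limma with Benjamini-Hochberg adjustment over all genes), against 13.6% of all genes called higher and 16.2% called lower. Their median log2 fold change was 0.81, beside -0.026 over all genes. It was similar in both AV mice, at 0.72 in AV replicate 1 and 0.92 in AV replicate 3. The marker sums given above differed between the same groups, and their part in these counts was not tested.

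All 5 listed genes of calmodulin and its small binding proteins, of 7 in the list, rose in AV, beside 13.6% of all genes called higher. Calm2 and Calm3, which encode an identical calmodulin protein, rose by 0.99 and 1.50 on the log2 scale (adjusted p = 0.0349 and 0.00505, limma). The call of Calm2 was lost without BA replicate 1, BA replicate 2 or AV replicate 1, where the change was 0.88, 0.91 and 0.81. Nrgn encodes neurogranin, which holds calmodulin in dendritic spines, and its signal was 11.7, 15.8 and 16.3 in the BA mice and 129 and 131 in the AV mice, a log2 fold change of 3.08 (SE 0.24, adjusted p = 0.00256, limma). Pcp4, another small calmodulin-binding protein, rose by 2.13 (adjusted p = 0.00801, limma).

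The inhibitor of the kinase moved in the same direction as Camk2a. Camk2n1, which encodes a small protein that binds and inhibits active CaMKII, had a signal of 118, 212 and 181 in the BA mice and 1654 and 1353 in the AV mice. The groups did not overlap, and the log2 fold change was 3.17 (SE 0.30, adjusted p = 0.00288, limma), while the second inhibitor gene, Camk2n2, was not listed. Of 10 listed genes of phosphatases that act on CaMKII or are driven by calmodulin, 4 were called higher and 0 lower. By sign alone, 8 were higher and 2 lower in AV. The share called was 40%, beside 29.7% of all genes. Ppm1e, a phosphatase of CaM kinases, rose by 2.09 (adjusted p = 0.00319, limma) and Ppp3r1, the regulatory subunit of calcineurin, by 1.37 (adjusted p = 0.0156, limma). The call of Ppp3r1 was lost without BA replicate 1 or BA replicate 3, where the change was 1.24 and 1.38.

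Of the other CaM-dependent kinases, 5 of 12 were listed and 1 was called, or 20%, beside 29.7% of all genes called in either direction. The called gene, Camk1d, had a signal of 56.7, 48.4 and 58.5 in the BA mice and 242 and 377 in the AV mice. Its log2 fold change was 2.45 (SE 0.27, adjusted p = 0.00319, limma). Camk1, a kinase of the same family, had values of 134, 81.5 and 107 in the BA mice and 138 and 137 in the AV mice and did not pass the test. Camk4, Camk1g, Pnck, Camkk2 and Camkv were listed in neither table.

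On the side of calcium entry, 5 of the 8 listed genes of NMDA receptor and L-type channel subunits were called higher and 0 lower. By sign alone, 7 were higher and 1 lower in AV. The share called was 62.5%, beside 29.7% of all genes. Grin2b, the NMDA receptor subunit to which CaMKII binds, had a signal of 151, 118 and 150.4 in the BA mice and 707 and 613 in the AV mice, a log2 fold change of 2.24 (SE 0.23, adjusted p = 0.00314, limma). Grin2d, another NMDA receptor subunit, changed by 2.63 (SE 0.74, adjusted p = 0.0370, limma), from values of 1.99, 12.7 and 2.03 in the BA mice, where replicates 1 and 3 lie at about the lowest value of the table, and its call was lost without BA replicate 1, BA replicate 3 or AV replicate 3 (2.26, 2.27 and 1.94). Cacnb4, an auxiliary subunit of calcium channels, changed by -0.76 and did not pass the test (adjusted p = 0.0801, limma). Grin1 and Grin2a were listed in neither table.

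Among the synaptic substrates and anchors, 12 of 20 were listed, of which 9 were called higher and 1 lower (83.3% called, beside 29.7% of all genes). Dlg4, the scaffold PSD-95, had a signal of 162, 116 and 154 in the BA mice and 846 and 1077 in the AV mice, a log2 fold change of 2.73 (SE 0.25, adjusted p = 0.00288, limma). Shank2, a scaffold of the postsynaptic density, had 43.1, 27.2 and 37.3 against 342 and 563, a log2 fold change of 3.60 (SE 0.32, adjusted p = 0.00278, limma). Gria4, an AMPA receptor subunit, fell by 1.07 (adjusted p = 0.0276, limma), a call that was lost without BA replicate 2 or BA replicate 3 (-0.90 and -1.04). Gria1, Shank1, Lrrc7, Cacng2 and Cacng3 were listed in neither table.

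Of the nuclear targets, 11 of 12 were listed, and 4 were called higher and 1 lower (45.5% called, beside 29.7% of all genes). Mef2c, a transcription factor regulated by calcium, had a signal of 90.2, 98.8 and 216 in the BA mice and 963 and 913 in the AV mice, a log2 fold change of 2.90 (SE 0.40, adjusted p = 0.00431, limma). The CREB coactivators moved in opposite directions, since Crtc1 rose by 1.21 (adjusted p = 0.0140, limma) and Crtc2 fell by 1.42 (adjusted p = 0.0108, limma). The call of Crtc1 was lost without BA replicate 2 or BA replicate 3, where the change was 1.17 and 1.08.

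Of the machinery that carries Camk2a and other mRNAs into dendrites, 2 of 13 listed genes were higher and 1 lower, with a median log2 fold change of 0.030, near the shares and the median of all genes given above. Kif5c, a kinesin motor, rose by 1.93 (adjusted p = 0.00467, limma) and Purb, a protein of RNA transport granules, by 1.97 (adjusted p = 0.00328, limma), while Cpeb2, a regulator of cytoplasmic polyadenylation, fell by 0.92 (adjusted p = 0.0211, limma), a call that was lost without BA replicate 1, 2 or 3 (-0.98, -0.88 and -0.91). Of the 5 listed dendritic mRNAs other than Camk2a, 4 were called higher (80% called, beside 29.7% of all genes). Ddn had a signal of 26.2, 28.4 and 21.5 in the BA mice and 480 and 1710 in the AV mice, a log2 fold change of 5.11 (SE 0.51, adjusted p = 0.00297, limma). Arc, an immediate early gene whose mRNA travels to active synapses, had 952, 648 and 417 in the BA mice and 1058 and 739 in the AV mice, which overlap, and it did not pass the test (adjusted p = 0.375, limma).

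In BA vs AP, 75 of the 95 genes were listed and 0 were called in either direction by limma, where 0.00% of all genes were called higher and 0.00846% lower. At an unadjusted p under 0.05, 7 of them were higher and 1 lower, against 4.99% and 2.77% of all genes. Their median log2 fold change was 0.23, beside -0.032 over all genes. By mouse, the median difference from BA was -0.037 in AP replicate 1, 0.15 in AP replicate 2 and 0.50 in AP replicate 3, and 2.67%, 17.3% and 26.7% of the 75 genes lay more than 1 log2 unit above the BA mean, beside 2.82%, 5.03% and 8.54% of all genes in the same mice.

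Camk2n1 had a signal of 160, 283 and 198 in the BA mice and 195, 1166 and 1076 in the AP mice, so AP replicate 1 lay inside the BA range, and the log2 fold change was 1.59 (adjusted p = 0.606, limma). With 1 mouse left out, the log2 fold change of Camk2n1 ranged from 1.14 to 2.43. The highest value came without AP replicate 1, the mouse inside the BA range, so no call is read from that fit. Nrgn spread over a wider range, at 5.41, 112.5 and 397 in AP replicates 1, 2 and 3, the first of which is the level of 3 reads in that library, against 14.8 to 20.5 in the BA mice. Grin2b was 119, 329 and 1447 in the AP mice and 149.6 to 181 in the BA mice. For these genes AP replicate 1 was within or under the BA range and the other two AP mice were above it.

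The same split was seen in Kif5c, at 469, 2559 and 2950 in AP replicates 1, 2 and 3 against 509.5 to 974 in BA. It was also seen in Shank2, at 27.0, 142 and 243 against 33.8 to 54.2, in Dlg4, at 139.7, 306 and 367 against 159.9 to 207, and in Pcp4, at 16.8, 67.1 and 118 against 15.9 to 31.7. None of these was called (limma, adjusted p from 0.693 to 0.764).

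Some other named genes did not follow this split. Mef2c was 327, 288 and 611 in the AP mice against 110, 118 and 258 in the BA mice, and Camk1d was 94.1, 140.1 and 159 against 71.3, 58.4 and 64.5. In both, all 3 AP mice lay above all BA mice, as for 5.64% of all genes, with log2 fold changes of 1.36 (adjusted p = 0.428, limma) and 0.98 (adjusted p = 0.392, limma). Calm2 and Calm3 had log2 fold changes of 0.24 and 0.18, with overlap (adjusted p = 0.828 and 0.867, limma). Cpeb1, a polyadenylation regulator that binds the Camk2a mRNA, was 249, 239 and 185 in the AP mice and 370, 288 and 359 in the BA mice, without overlap (6.45% of all genes were lower in this way), a log2 fold change of -0.60 (adjusted p = 0.597, limma).

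**Figure D5:**
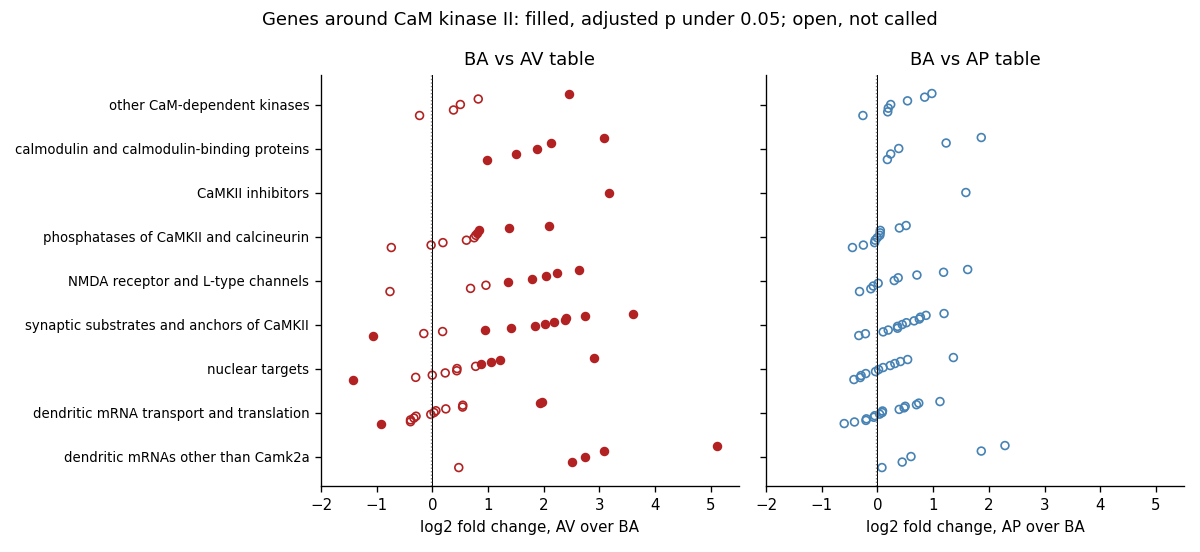
Log2 fold change over BA of each listed gene in the 9 lists of genes around CaMKII, for AV on the left and AP on the right, with filled points for an adjusted p under 0.05 and open points otherwise, and a gene in several lists drawn in each. In AV 33 genes are called higher and 3 lower, Ddn lies farthest to the right at 5.11, and in AP no point is filled.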

How the data were processed

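The authors deposited, in 2 tables, a normalized signal for each gene in each mouse. Their methods name a low-count filter, TMM and ARSyN batch correction, without saying which tables ARSyN was used for. In BA replicate 3, Camk2a was 68.4 in the BA vs AV table and 69.4 in the BA vs AP table, and Camk2d was 401 and 457. The same library thus did not differ between the tables by a common factor alone, and the step behind this was not tested. Calls rest on the values as deposited, so their numbers are not comparable between the tables. Submitters' processing notes list bcl2fastq 2.20, Salmon 1.2 and GRCm38.p6. Libraries were stranded and paired-end, with reads of 75 bases. Groups followed the labelled phenotype. The study's test, NOISeqBIO, was not run here.

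Log2(value + 1) of all genes of a table entered a group model without covariates (limma 3.58.1, R 4.3.3), and calls were made under 0.05 after Benjamini-Hochberg adjustment over that table. Fold changes are on that scale, which understates changes of low genes. Symbols, exon lengths, coordinates and sequences came from GENCODE M21 (GRCm38), read with Python 3.11.15. Reads were recovered in the BA vs AP table as (value - 2) divided by each mouse's smallest step. Between 80.2% and 87.1% of values less than 40 above the lowest were whole within 0.02 of a step. The script was tested on simulated data.

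The subunit genes and all gene lists were chosen with earlier results of these data known. Named were the 4 subunits, all inhibitors and calmodulin genes, from every other list up to 2 called genes with the largest change per direction in BA vs AV and the largest per direction in BA vs AP, and the genes most like each subunit (mean of at least 50 in a group). Some genes that this rule names are not reported here. Marker genes of a cell type were summed per mouse. Alternatives were pseudocounts of 0.5 and 8, a filter at a mean of 20, median centring, limma's variance trend, a stricter threshold, another gene length, a replicate block and leaving out each mouse.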

Additional observations from a re-analysis of the deposited data

How the results depend on the processing

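Leaving out 1 mouse at a time moved the log2 difference from BA of Camk2a between 4.62 and 5.46 in AV and between 1.73 and 3.82 in AP, with no change of direction. Of 22 genes that the naming rule took and that were called in BA vs AV, 15 kept the call in every such fit, and Calm2, Cpeb2, Crtc1, Gria4, Grin2d, Ppp1ca and Ppp3r1 lost it in at least 1. Genes called higher in AV numbered 704 to 1588 with 1 mouse left out (1338 with all), and genes called lower 811 to 1909 (1596 with all). Among the genes around CaMKII, 23 to 33 were called higher and 1 to 5 lower. In BA vs AP 0 to 13 genes were called higher and 0 to 2 lower, with 0 to 2 genes around CaMKII higher. At an adjusted p under 0.01, BA vs AV kept 526 higher and 625 lower calls, 21 and 0 of them around CaMKII. A moderated variance with a trend gave 5 lower calls around CaMKII and, in BA vs AP, 9 higher calls. There a pseudocount of 0.5 gave 1 higher call, and a pseudocount of 8 or the filter on low values gave 0 lower calls. Whether replicate numbers pair the mice was not settled. Deviations of same-numbered mice correlated at -0.060 and -0.039 in BA vs AV. The deviations of the AV mice mirror each other by construction, so these values cannot decide it. In BA vs AP same-numbered mice correlated at 0.020, 0.12 and 0.081, and differently numbered mice at -0.12 to 0.014. The fit with the replicate block called 465 genes higher and 505 lower in BA vs AV, 0 lower around CaMKII, and 0 lower in BA vs AP, and Calm2, Cpeb2, Crtc1, Crtc2, Gria4, Ppp1ca and Ppp3r1 lost their calls. With the longest transcript as gene length, shares of the summed subunit level became, in the BA vs AV table, 29.1% for Camk2d and 61.8% for Camk2g in BA and 68.9% for Camk2a and 11.4% for Camk2d in AV, and, for BA vs AP, 29.4% and 61.6% for Camk2d and Camk2g in BA and 25.7% for Camk2d in AP. Small fold changes turned sign with 1 mouse left out: Cpeb1 in AV (-0.61 to 0.018, the latter without AV replicate 3), and in AP Arc (-0.25 to 0.36, with -0.25 without BA replicate 3 and -0.15 without AP replicate 1), Crtc1 (0.12 without BA replicate 1, 0.039 without AP replicate 1, 0.10 without AP replicate 2) and Ppm1e (-0.18 to 0.93, the former without AP replicate 3). Recovered reads were also scaled to their sum over the listed genes, a setting chosen after seeing the data. This gave differences of 2.61, 0.54 and -0.16 for Camk2a, Camk2d and Camk2g in AP. The causes were not tested. The planned ratio of Camk2a to Camk2b had no value, because Camk2b was not listed.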
